A study of Mus musculus with 6 samples.

Results

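The 8 chemokine receptor genes described here, Ccr1, Ccr2, Ccr7, Ccrl2, Cxcr3, Cxcr4, Cxcr6 and Cx3cr1, were chosen by name as receptors carried by leukocytes that can enter a tissue. They are 8 of the 33924 gene symbols in the authors' table of young against aged mouse RPE/choroid, the retinal pigment epithelium collected along with the vascular layer beneath it. Total RNA was sequenced from 3 young and 3 aged libraries of C57BL/6J mice, each made from the tissue of 2 eyes, with ribosomal RNA removed and no selection for poly(A) tails. Sample titles give the young mice as 1 to 2 months old and the aged mice as 20 to 24 months old, while another label gives 22 to 24 months for the aged mice and the methods state a somewhat older range for the young mice. No genotype or treatment other than age sets the groups apart, and every library is labelled male, although its authors describe mice of both sexes. The question was how transcripts of this tissue differ with age.

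Chemokine receptors are G protein-coupled receptors on the surface of leukocytes that sense gradients of small secreted proteins, the chemokines, and steer the cell along them. Each leukocyte type carries its own set: monocytes leave the marrow through Ccr2, effector T cells follow interferon-induced chemokines through Cxcr3, and the microglia and macrophages that live in neural tissue carry Cx3cr1. Atypical receptors such as Ccrl2 bind ligands without signalling through G proteins. Some members are also made outside the blood lineage, Cxcr4 by endothelium among others, so a transcript of these genes does not by itself name a cell.

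For each gene the authors' table holds the mean over the 6 libraries in normalized counts, a fold change on the log2 scale, the standard error (SE) of that change and a p-value. It holds no value per library, so replicate error enters through the SE alone, the depth of each library is unknown here, and no overlap between mice can be described. Fold changes are given as aged over young on the log2 scale. The table does not name the direction of its sign, which was inferred from the numbers of higher and lower genes stated in the study, and every direction below depends on it. A gene is said to have risen or fallen where the Benjamini-Hochberg adjusted p of the Wald test was under 0.05 among the 18636 genes tested. In bulk tissue, more cells of a type and more RNA per cell cannot be told apart.

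Of the 8 receptors, 5 rose in aged mice (Cxcr3, Cxcr4, Cxcr6, Ccr2 and Ccrl2), 1 fell (Ccr1) and 2 did not pass (Ccr7 and Cx3cr1). Among all genes tested, 21.2% passed in either direction, 11.3% rose and 9.92% fell. The median log2 fold change was 0.73 over the 8 receptors and -0.01 over all genes tested. All 8 were tested, and all 8 had an unadjusted p under 0.05. Their means ran from 23.1 normalized counts for Ccr7 to 779 for Cx3cr1, on both sides of the median of 316 over the genes tested.

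**Figure D1:**
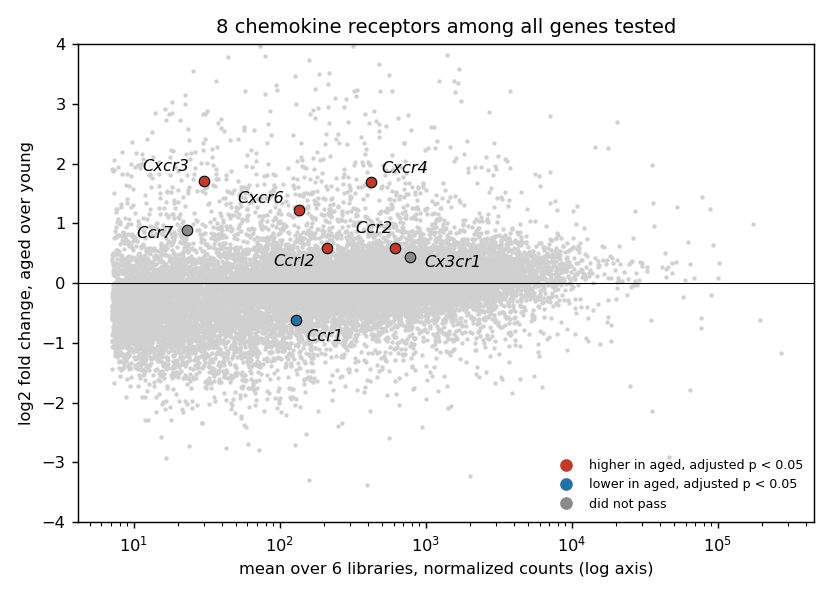
Each grey point is 1 of the 18636 genes tested, with the mean over 6 libraries in normalized counts on the horizontal log axis and the log2 fold change of aged over young on the vertical axis; 20 genes lie outside the plotted range. The 8 receptors are named and coloured by their test: Cxcr3 and Cxcr4 stand highest at 1.70 and 1.68, and Ccr1 is the 1 receptor below 0.

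Cxcr4, the receptor for Cxcl12 that holds blood cells in marrow and lymphoid niches and is carried by most leukocytes, had the smallest adjusted p of the 8. Its mean was 419 normalized counts, and the mean and fold change together imply levels of 199 in young and 638 in aged mice. The log2 fold change was 1.68 (SE 0.19, 95% interval 1.30 to 2.06, adjusted p = 2.11e-16), a 3.21-fold higher level in aged mice. Of the genes tested, 1.44% had a fold change at least as high. The gene lies on the minus strand of chromosome 1 (chr1:128588199-128592299, RefSeq annotation of GRCm38.p6).

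The 250 bases before the start of Cxcr4 and of Ccr1 are shown because these genes have the smallest adjusted p of a rise and the only fall among the 8. Both are RefSeq sequences of GRCm38.p6 on the minus strand, written 5′ to 3′ with the gene start at the right end, for Cxcr4 chr1:128592300-128592549 and for Ccr1 chr9:123968693-123968942. Capitals mark matches, on either strand, to the GC box (GGGCGG), bound by Sp1-type factors, and to the TATA box (TATAAA).
Cxcr4: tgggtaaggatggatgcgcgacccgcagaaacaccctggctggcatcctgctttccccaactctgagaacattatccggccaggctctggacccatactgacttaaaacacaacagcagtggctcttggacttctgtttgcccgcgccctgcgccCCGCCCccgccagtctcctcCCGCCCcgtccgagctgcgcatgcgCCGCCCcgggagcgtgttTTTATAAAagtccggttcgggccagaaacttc
Ccr1: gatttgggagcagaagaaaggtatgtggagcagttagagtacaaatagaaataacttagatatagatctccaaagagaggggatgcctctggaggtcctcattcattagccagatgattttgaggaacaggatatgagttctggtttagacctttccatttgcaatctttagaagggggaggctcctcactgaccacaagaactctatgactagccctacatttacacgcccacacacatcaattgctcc

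The Cxcr4 promoter held 3 GC boxes, and overlapping matches to the TATA box on both strands near the start. Its GC content was 61.2%, against 43.6% for Ccr1 and a median of 52.4% over 32817 mouse promoter windows of the same length. A GC box was found in 32.7% of all those windows and a TATA box in 12.4%. The other motifs searched, on both strands and with overlaps allowed, were PU.1 (GAGGAAG, in 10.6% of windows), STAT (TTCNNNGAA, 7.01%), CRE (TGACGTCA, 1.55%), NF-kB (1.21%) and T-box (AGGTGTGA, 1.12%). The Ccr1 window held none of the 7. Of the 7 receptors with a window, 2 had a GC box (Cxcr4 and Ccrl2), 1 a TATA box (Cxcr4) and 1 a PU.1 match (Cxcr3). These matches describe letters in the reference and no binding was measured.

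Cxcr3 and Cxcr6 are receptors of effector lymphocytes, and both rose. Cxcr3, which brings activated T helper, cytotoxic T and NK cells to sites of interferon-gamma, had a low mean of 30.1 normalized counts, with implied levels of 14.2 in young and 46.0 in aged mice. Its log2 fold change was 1.70 (SE 0.37, 95% interval 0.98 to 2.42, adjusted p = 5.89e-05), as large as that of Cxcr4 but with a wider interval. Cxcr6, found on tissue-resident T cells and NKT cells, had a mean of 134 and implied levels of 80.9 and 188. Its log2 fold change was 1.22 (SE 0.34, 95% interval 0.55 to 1.88, adjusted p = 0.00304), a 2.32-fold higher level.

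Ccr7, which guides naive T cells and mature dendritic cells into lymph nodes, was the least abundant of the 8 at a mean of 23.1. Its log2 fold change of 0.88 (SE 0.40, 95% interval 0.10 to 1.66) did not pass, with an adjusted p of 0.0970. The estimate was higher than those of Ccr2 and Ccrl2, which did pass with smaller errors. Among tested genes with a mean under 30, the median SE was 0.43, close to that of Ccr7.

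Ccr2, Ccrl2, Cx3cr1 and Ccr1 are receptors of myeloid cells, though not of these alone. Ccr2, which draws classical monocytes out of marrow and into tissue, had a mean of 610 normalized counts and implied levels of 487 in young and 733 in aged mice. It rose by 0.59 on the log2 scale (SE 0.16, 95% interval 0.27 to 0.91, adjusted p = 0.00329), a 1.50-fold higher level. Ccrl2, the atypical receptor that binds chemerin and presents it to cells bearing its signalling receptor, had the same estimate of 0.59 (SE 0.20, 95% interval 0.20 to 0.97, adjusted p = 0.0193) at a mean of 210. Cx3cr1, the fractalkine receptor of microglia, resident macrophages and patrolling monocytes, was the most abundant by mean. Its log2 fold change of 0.44 (SE 0.19, 95% interval 0.07 to 0.82) had an adjusted p of 0.0816.

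Ccr1, a receptor for inflammatory CC chemokines on monocytes, macrophages and neutrophils, was the only 1 of the 8 to fall. Its mean was 128 normalized counts, and the implied levels were 155 in young and 101 in aged mice. The log2 fold change was -0.61 (SE 0.21, 95% interval -1.03 to -0.19, adjusted p = 0.0251), and 13.9% of the genes tested had a fold change at most as low. Its interval did not overlap that of any of the other 7. The fall did not pass at an adjusted p under 0.01. No test of the difference between genes was run, since all are read in the same libraries.

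The mean counts are not scaled by length, so levels were set between genes per kilobase of the principal coding transcript in the GENCODE M21 annotation. On that scale, normalized counts per kilobase implied for young mice ran from 147 for Cx3cr1, through 110 for Cxcr4, 85.1 for Ccr2, 68.4 for Ccrl2, 54.8 for Ccr1 and 42.6 for Cxcr6, down to 8.22 for Ccr7 and 8.18 for Cxcr3. The corresponding levels in aged mice were 354 for Cxcr4, 200 for Cx3cr1, 128 for Ccr2, 103 for Ccrl2, 99.1 for Cxcr6, 35.8 for Ccr1, 26.6 for Cxcr3 and 15.1 for Ccr7. These levels carry no error of their own, so the order is a description and neighbours in it, such as Cx3cr1 and Cxcr4 in young mice, cannot be separated. Between 96.6% and 100% of the 31-base words of each receptor's transcripts occurred in no other gene. The lowest share was that of Ccr2.

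The other chemokine receptors were described from a list of 15, of which 10 were tested, 2 rose, 3 fell and 5 did not pass. Cxcr1, an interleukin-8 type receptor of neutrophils, rose by 2.83 on the log2 scale (SE 0.44, adjusted p = 6.29e-09) at a mean of 17.3 normalized counts. Xcr1, the receptor of cross-presenting dendritic cells, rose by 0.81 (SE 0.31, adjusted p = 0.0468). Its call was lost without a filter on the mean (adjusted p = 0.0657). The 3 that fell were Ccr9, a gut-homing receptor, at -1.08 (SE 0.35, adjusted p = 0.0149), and the scavenging receptors Ackr4 at -0.82 (SE 0.21, adjusted p = 0.000980) and Ackr3 at -0.46 (SE 0.15, adjusted p = 0.0169). Ackr3 binds Cxcl12, as Cxcr4 does.

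The remaining tested receptors were Cxcr2 at 0.66, Cxcr5 at 0.03, Ccr10 at -0.15, Ackr2 at -0.46 and Ackr1 at -0.65, none of which passed. Ccr3, Ccr4, Ccr6, Ccr8 and Ccr1l1 had means under 7.07 normalized counts, the lowest among genes with an adjusted p, and were not tested. Over all 23 receptors described, 18 were tested, 7 rose and 4 fell. No atypical receptor of the Ackr group rose, and Ccrl2 did.

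**Figure D2:**
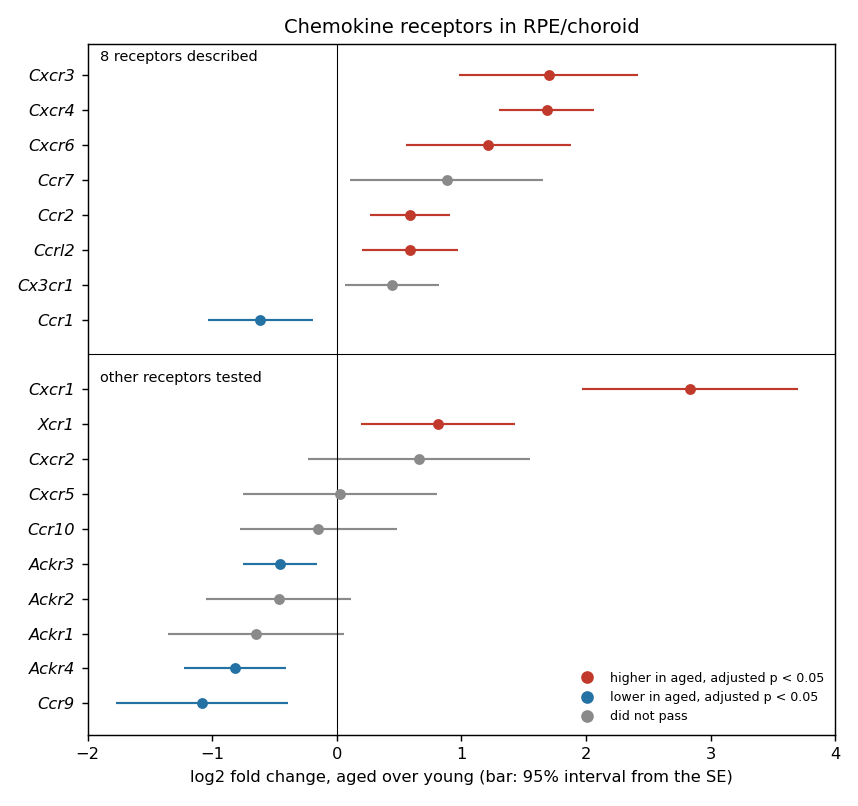
Log2 fold change of aged over young (horizontal axis) for the 8 receptors and for the 10 other chemokine receptors tested, with bars for the 95% interval from the SE and colours for the test. The intervals of 7 of the 8 lie above 0 and that of Ccr1 below it, at -1.03 to -0.19.

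Among the ligands listed for the 8 receptors, 18 in all, 13 were tested, 8 rose and none fell; the median log2 fold change was 0.86. Cxcl9, 1 of the 3 interferon-induced ligands of Cxcr3, rose by 1.88 (SE 0.37, adjusted p = 6.54e-06), while Cxcl10 at 0.52 and Cxcl11 at 0.22 did not pass. Cxcl16, the membrane-anchored ligand of Cxcr6, rose by 1.84 (SE 0.15, adjusted p = 8.95e-34). Cxcl12, the ligand of Cxcr4, had a mean of 4619 normalized counts and a log2 fold change of 0.52 (SE 0.20), listed without a p-value.

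Of the ligands of Ccr2, the monocyte chemoattractant Ccl2 rose by 0.91 (SE 0.36, adjusted p = 0.0490), and Ccl7 at 0.37 and Ccl12 at -0.15 did not pass. The call of Ccl2 was likewise lost without that filter (adjusted p = 0.0686). Of the 5 listed ligands of Ccr1, 3 rose although Ccr1 fell. Ccl3 rose by 1.93 (SE 0.38, adjusted p = 7.35e-06) at a mean of 26.1 normalized counts. Ccl5 rose by 1.81 (SE 0.42, adjusted p = 0.000255) at a mean of 17.6, and Ccl6 by 0.98 (SE 0.20, adjusted p = 2.01e-05). Ccl9 at 0.09 did not pass, nor did Ccl7, which is also a ligand of Ccr1. Fractalkine (Cx3cl1), the ligand of Cx3cr1, rose by 0.86 (SE 0.20, adjusted p = 0.000367), and chemerin (Rarres2), the ligand of Ccrl2, rose by 0.60 (SE 0.16, adjusted p = 0.00249). The ligands of Ccr7 gave no test: Ccl19, Ccl21a and Ccl21c are listed at 0 and Ccl21b has a mean of 0.399. The Ccl21 genes are near-identical copies, so the split of reads among them is uncertain.

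**Figure D3:**
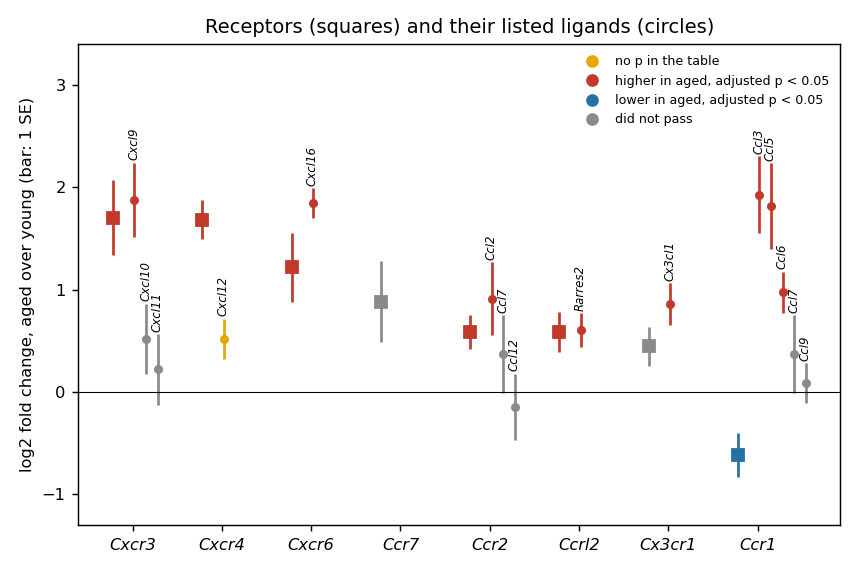
Squares give the log2 fold change of aged over young of each receptor and circles that of each of its listed ligands with a value, with bars of 1 SE; Ccl7 is drawn under both Ccr1 and Ccr2, and Ccr7 has no ligand with a test. For Ccr1 the receptor lies at -0.61 and its ligands between 0.09 and 1.93.

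Of 33 genes that carry or end signals from these receptors (Gi and G beta-gamma subunits, PI3K-gamma, Rac activators, receptor kinases, arrestins and RGS proteins), 32 were tested, 15 rose, none fell and 17 did not pass, with a median log2 fold change of 0.43. Elmo1, a partner of the Rac activators, did not pass at -0.36 but fell when the median of abundant genes was set to 0. The largest were Pik3r5, the regulatory subunit of PI3K-gamma, at 3.12 (SE 0.20, adjusted p = 2.49e-50), and Rgs1, which shortens chemokine signals in lymphocytes, at 2.88 (SE 0.32, adjusted p = 3.05e-17). The Src-family kinase Fgr of myeloid cells rose by 2.04 (SE 0.24, adjusted p = 1.10e-15) and the Rac activator Vav1 by 1.97 (SE 0.15, adjusted p = 9.86e-37).

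Markers of leukocytes moved in the same libraries. All 10 pan-leukocyte genes rose, with a median log2 fold change of 1.90, with Lcp1, an actin-bundling protein of leukocytes, at 1.89 and Ptprc, which encodes the common leukocyte antigen CD45, at 1.94. Their summed implied level was 4804 normalized counts in young and 18696 in aged mice, while that of the 8 receptors was 1781 and 2887. Each of the 8 receptors had a lower fold change than Ptprc. The difference in log2 fold change from Ptprc was -0.24 for Cxcr3 and -0.26 for Cxcr4, -0.73 for Cxcr6, -1.06 for Ccr7, -1.36 for Ccr2 and for Ccrl2, -1.50 for Cx3cr1 and -2.56 for Ccr1. These differences have no error, because the covariance between genes needs values per library. With each other pan-leukocyte gene as the reference, between 4 of the 8 (Arhgdib) and all 8 lay below it. How much of each receptor's value goes with the number of leukocytes was not tested.

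Other leukocyte markers differed by cell type. Of 20 tested T and NK cell markers, 16 rose and none fell (median 1.53, with Cd4 at 2.41 and Cd28 at 1.55). Of 11 listed neutrophil markers, 7 were tested and 4 rose (median 1.47, with Csf3r at 1.73 and S100a9 at 1.47). Retnlg, Camp and Ltf did not pass, and Ly6g, Mpo, Elane and Ngp were too low to be tested. Of 8 mast cell markers, 7 rose (median 2.38, with Cma1 at 2.44 and Kit at -0.33). Of 7 tested B cell markers, 1 rose and 1 fell (median 0.18, with Cr2 at -1.58 and Cd79b at 0.47).

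Markers of the myeloid cells that carry Ccr1, Ccr2 and Cx3cr1 were mixed. Of 7 tested monocyte markers, 3 rose and none fell, with a median of 0.23 and summed implied levels of 844 and 872 normalized counts. The monocyte genes of highest mean, Plac8 at -0.29 and Nr4a1 at 0.12, did not pass, while F10 rose by 1.74, Ly6c2, which marks classical monocytes, by 1.51 and Ms4a4c by 1.03. Of 13 markers of resident macrophages and microglia, 5 rose and 3 fell (median 0.15). Their summed implied level was 12731 normalized counts in young and 23215 in aged mice. The 5 that rose were Adgre1, the macrophage antigen F4/80, by 2.12, the complement subunit C1qa by 1.92, Aif1 by 1.41, the phagocytic receptor Mertk by 0.66 and the growth factor receptor Csf1r by 0.37. RPE also makes Mertk, so its rise and its part of the summed level cannot be assigned to macrophages. The 3 that fell were Cd163 at -2.34, Lyve1 at -2.01 and Folr2 at -1.40, while Mrc1, a mannose receptor that perivascular macrophages carry as they do those 3, did not pass at 0.15. The microglial genes Tmem119 at 0.03 and P2ry12 at -0.03 did not pass. Of 9 tested dendritic cell markers, 2 rose and none fell (median 0.17, with Fscn1 at -0.09 and Zbtb46 at -0.15).

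The word infiltrating in the usual name of these receptors could not be checked, because leukocytes within vessels and within tissue share the same markers. Of 5 tested red blood cell markers, 4 fell and none rose (median -1.40, with Hba-a1 at -1.57 and Hba-a2 at -1.76), and of 13 tested endothelial markers 2 fell and none rose (median -0.17). RPE markers had a median of 0.34, with 2 of 7 risen. Melanocyte markers, which include pigment genes that RPE also makes, had a median of -0.20 with 2 of 7 fallen. None of 9 rod photoreceptor markers passed (median 0.24). The part of these tissue and blood values in the receptor values was not tested.

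**Figure D4:**
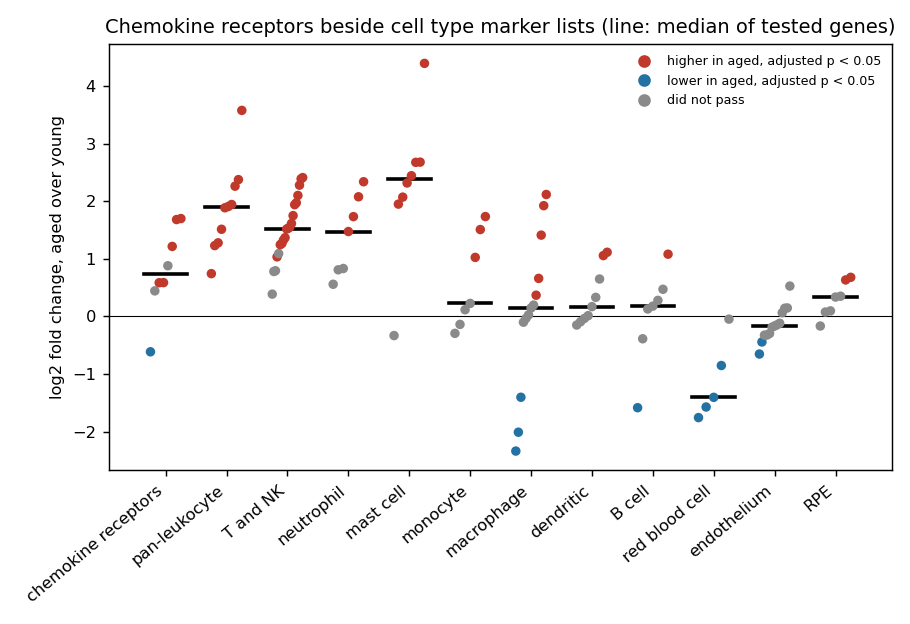
Each point is the log2 fold change of aged over young of 1 tested gene, grouped by list and coloured by its test, and each line is the median of a list. The 8 receptors, with a median of 0.73, lie between the pan-leukocyte genes at 1.90 and the monocyte and macrophage lists at 0.23 and 0.15.

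Genes for 3 of the 8 receptors lie together on chromosome 9, in a stretch of 342 kb from Ccr9 to Ccr2, with 8 protein-coding genes, that was picked out after its values were seen (chr9:123767211-124109140, GRCm38.p6). Of 6 tested genes there, 3 rose (Cxcr6, Xcr1 and Ccr2) and 2 fell (Ccr9 and Ccr1). The centres of Ccr1, which fell, and Ccr2, which rose, are 140 kb apart, with Ccr3 and Ccr1l1 between them below the mean limit. Cxcr6 lies within the gene Fyco1 on the opposite strand. Fyco1, an adaptor of vesicle transport, did not pass at 0.16 on the log2 scale (adjusted p = 0.416) at a mean of 3716 normalized counts. The libraries were stranded, but whether strand was used in counting is not given in the sources used here. Ccrl2 and Cx3cr1 are elsewhere on chromosome 9, Ccr7 is on chromosome 11 and Cxcr3 on chromosome X.

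**Figure D5:**
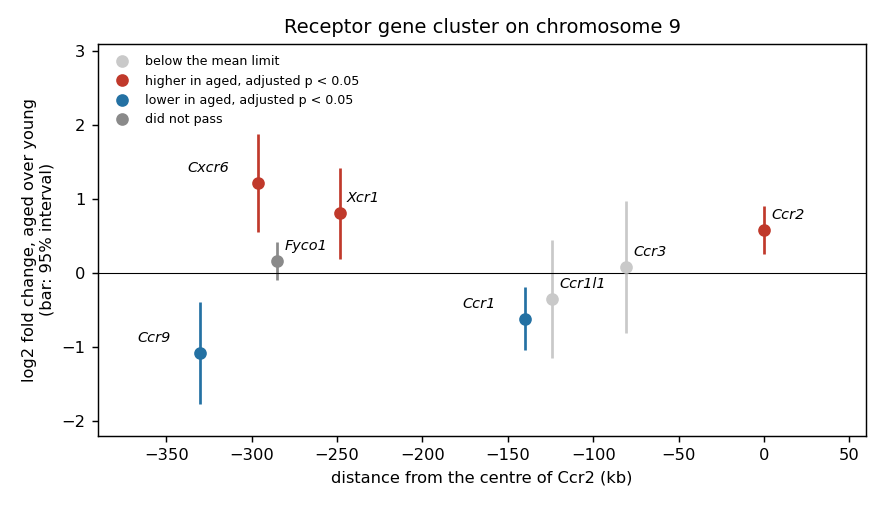
Log2 fold change of aged over young (vertical axis, bars for the 95% interval) of the 8 genes of the stretch by distance of their centres from that of Ccr2 in kb. Genes that rose and genes that fell lie among each other along the 342 kb, with Ccr1 at -0.61 and Ccr2 at 0.59 lying 140 kb apart.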

How the data were processed

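Total RNA of RPE/choroid from 3 young and 3 aged libraries was trimmed by the authors with BBDuk, aligned with STAR to Ensembl transcripts of GRCm38, quantified with Sailfish, scaled by total count and compared with DESeq2. The deposited table has 0 columns that name a sample. Its baseMean is a normalized signal, the mean over the libraries as deposited by the authors. Fold changes and their SE were deposited on the log2 scale. The Wald score, the p-value and the adjusted p-value were deposited by the authors with DESeq2 and hold the study's own comparison. Because they are the only measurements of these genes, the fold change and SE were used, and the Wald p (fold change over SE, two-sided) and the Benjamini-Hochberg adjustment over all 18636 genes with a deposited adjusted p were recomputed. The recomputed values differed from the deposited ones by at most 0.449% (p) and 0.486% (adjusted p), and 0 calls differed. The sign was reversed, since it was taken as young over aged. The largest SE in the table was 0.46, which is what shrinkage of fold changes would give, though no source used here says so, and with shrinkage the changes of low genes would be understated.

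Implied group levels are those at which groups of equal size have the deposited mean and fold change. Intervals (95%) are the fold change plus and minus the normal quantile times the SE. The p-values set each fold change against its SE, as the authors estimated it from these libraries. The p-value and adjustment steps were run on simulated fold changes drawn with the deposited SE. That checks the calculation alone, not the SE or the size of the groups. Positions and promoters were taken from RefSeq (GRCm38.p6) and lengths from GENCODE M21 (Python 3.11.15, pandas 2.3.3, scipy 1.17.1). Of 211 listed symbols, 7 were matched through older symbols (Ackr1 to Ackr4 among them) and 3 were not matched.

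The receptors, gene lists and threshold were chosen with earlier results of these data known. Genes named are the 8 receptors, the other listed receptors and ligands with an adjusted p, the 4 signalling genes past the threshold with the largest absolute fold change, and the 2 genes of highest mean in each leukocyte marker list. A receptor outside these lists is not reported here. Others were named after their values were seen: Cxcl12, Arhgdib, Elmo1, Hba-a1, Hba-a2, and the untested receptors and ligands. So were the neutrophil, monocyte, macrophage and cluster genes outside that rule. Alternatives were an adjusted p under 0.01, a log2 fold change of 1 or more in size, a mean of at least 30, centring on the median of genes with a mean of at least 100, and no filter on the mean.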

Additional observations from a re-analysis of the deposited data

How the results depend on the processing

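The number of receptors that rose was 5, and 3 when a log2 fold change of 1 or more in size was also required. The number that fell was 1, and 0 at an adjusted p under 0.01 or with that minimum fold change. Of the other receptors 5 passed, against 2 at an adjusted p under 0.01 and 2 with the minimum fold change, and of the ligands 8 passed, against 4 with the minimum fold change. These follow from the stricter rules themselves. Centring on the median of abundant genes moved all values by 0.065, turned Cxcr5, which did not pass, to -0.0373 and ended the calls of Xcr1 (adjusted p = 0.0719) and Ccl2 (adjusted p = 0.0714). Without a filter on the mean, more genes were tested and the same 2 genes no longer passed (adjusted p = 0.0657 and 0.0686). With a mean of at least 30, none of the 23 single genes with a value changed its call. Ccl3, Ccl5 and Cxcr1 lay below that mean and were not tested, which left 6 ligands and 4 other receptors passing. Centring also made 1 signalling gene, Elmo1, a fall, so that 15 rose and 1 fell. The counts of signalling and pan-leukocyte genes stayed within 1.5 times under each alternative. With Arhgdib in place of Ptprc as the leukocyte reference, a choice made after seeing the data, 4 receptors lay below it in place of 8.

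No paired analysis was possible because values for single mice are not part of the comparison table. Leaving out each replicate was not run for the same reason, so whether 1 library decides a value is unknown. Precision was lowest for genes of low mean: the median SE was 0.43 on the log2 scale at a mean under 30 and 0.16 at a mean of 300 to 1000. It also differed among genes of like mean. Cxcr6 had an SE of 0.34 at a mean of 134, against a median SE of 0.21 at a mean of 100 to 300.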
